A study of Mus musculus with 2 samples.

Results

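The neuropeptide Y family has 3 genes in the mouse count tables, Ppy, Pyy and Npy, out of 32285 features. They were taken by name and followed through islet cells sorted by their leading hormone. Single-cell RNA came from pancreatic islets of 12-week-old female mice on a C57BL/6 background, with 1 library labelled SpopβKO, in which Spop is deleted from beta cells, and 1 library labelled Spop fl/fl, the control with the floxed alleles. Spop encodes an adaptor that selects substrates for a ubiquitin ligase. The Cre driver, the deleted exons and the number of mice per library are not given in the sources used here. Islets of both genotypes were cultured in RPMI with glucose to recover, dispersed with trypsin and cleared of dead cells before capture in droplets with 10x Genomics 3′ chemistry. With 1 library per genotype there is no replicate and no test, so a difference between the libraries compares these 2 libraries. Intervals below are 95% intervals for counting error only.

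The 3 peptides share a fold and an amidated end, and act on a common set of G protein-coupled Y receptors. Ppy encodes pancreatic polypeptide, the hormone of the islet PP cell. Pyy encodes peptide YY, best known as a satiety hormone of gut L cells and also made in islets, where it appears early in endocrine development. Npy encodes neuropeptide Y, a transmitter of sympathetic nerves that lowers insulin secretion in rodent islets. The precursors are cut by prohormone convertases (Pcsk1, Pcsk2), trimmed by carboxypeptidase E (Cpe) and amidated by Pam, and the protease Dpp4 shortens mature peptide YY and neuropeptide Y.

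On mm10, Pyy lies at chr11:102106676-102107832 and Ppy at chr11:102099930-102101319, both on the minus strand, with 5356 bases between the annotated genes. Npy lies apart from them at chr6:49822710-49829507 on the plus strand. The longest exact run shared by any of their annotated transcripts was 10 bases for Ppy and Pyy, 9 for Ppy and Npy and 10 for Pyy and Npy, against reads of 90 bases. Because the paired detection of Ppy and Pyy runs through the results, the 250 bases before each gene's start are shown for comparison. They come from RefSeq on GRCm38.p6, 5′ to 3′ on the gene's strand, with TATAA in capitals.
Ppy, chr11:102101320-102101569: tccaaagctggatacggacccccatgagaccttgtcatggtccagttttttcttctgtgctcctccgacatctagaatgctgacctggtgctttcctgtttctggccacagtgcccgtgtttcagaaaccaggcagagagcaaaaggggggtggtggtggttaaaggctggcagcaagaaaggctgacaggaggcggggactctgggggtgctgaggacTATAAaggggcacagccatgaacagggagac
Pyy, chr11:102107833-102108082: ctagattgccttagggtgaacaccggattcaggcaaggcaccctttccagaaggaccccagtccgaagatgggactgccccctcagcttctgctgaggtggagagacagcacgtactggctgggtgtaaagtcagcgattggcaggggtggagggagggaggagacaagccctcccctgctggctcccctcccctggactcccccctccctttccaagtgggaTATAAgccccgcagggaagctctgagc
Npy, chr6:49822460-49822709: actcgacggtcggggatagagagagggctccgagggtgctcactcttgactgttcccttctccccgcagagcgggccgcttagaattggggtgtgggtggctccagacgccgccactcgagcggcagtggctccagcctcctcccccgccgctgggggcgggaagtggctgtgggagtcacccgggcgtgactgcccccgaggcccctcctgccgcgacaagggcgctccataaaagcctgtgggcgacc
TATAA stood once on the gene's strand in Ppy, beginning 31 bases before the start, and once in Pyy, beginning 27 bases before it. Neither strand of the Npy window held those letters. Of 27025 promoters of the same length, 16.7% had TATAA on the gene's strand and 23.5% on either strand. The E-box letters CANNTG, which read alike on both strands and do not overlap the TATAA found here, occurred once in Pyy and not in the Ppy and Npy windows, against 66.0% of all promoters. The homeodomain core TAAT was in none of the 3 windows on either strand, against 55.3% of all promoters. GC content was 55.2% for Ppy, 61.2% for Pyy and 69.2% for Npy, with a median of 52% over all promoters.

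The SpopβKO library held 10033 barcodes and 89977773 UMIs (unique molecules counted), and the Spop fl/fl library 7768 barcodes and 82541585 UMIs. After filters on detected genes and mitochondrial RNA, 8842 and 6850 cells stayed, and 21 barcodes occurred in both libraries. Each cell was classed by whichever of Ins1 plus Ins2, Gcg, Sst or Ppy had most UMIs. This gave 7347 SpopβKO and 4681 Spop fl/fl insulin-led cells, 1190 and 1892 glucagon-led, 14 and 24 somatostatin-led, and 145 and 161 Ppy-led cells. With at least 50 UMIs of the leading hormone, 7031 SpopβKO and 3745 Spop fl/fl insulin-led cells stayed. The Spop fl/fl class thus held more cells with little insulin RNA, which limits every comparison of the libraries within it. Other markers of the beta list, leaving out the insulins, were highest in insulin-led cells for 6 of 7 genes in each library, and those of the alpha list in glucagon-led cells for 6 of 7 in SpopβKO and 5 of 7 in Spop fl/fl. The delta list without Sst was highest in somatostatin-led cells for 4 of 5 and 3 of 5. Of 5 other PP markers only 2 in SpopβKO and 1 in Spop fl/fl were highest in Ppy-led cells, with Tspan8 among them in both, so these cells are called by their rule. Spop itself had 84.8 CPM (UMIs of the gene relative to all UMIs of the summed cells, on 1 scale for both libraries) in SpopβKO and 69.2 CPM in Spop fl/fl insulin-led cells, a log2 ratio of 0.29. Tags from the 3′ end do not check a deletion elsewhere in the gene, and which exons were removed is not given.

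Droplets also hold free RNA from broken cells. Its level was read from barcodes with at least 10 UMIs of mesenchymal, endothelial or immune markers (C1qa and C1qb not counted), which number 99 in SpopβKO and 66 in Spop fl/fl and are called non-endocrine here. Their median depth was 10525 UMIs in SpopβKO and 13280.5 in Spop fl/fl, against 7911 and 9444 in insulin-led and 6442.5 and 7954 in glucagon-led cells. The class rule is blunt for somatostatin. Of cells with at least 20 Sst UMIs, 67 of 99 in SpopβKO and 39 of 105 in Spop fl/fl were insulin-led, and glucagon-led cells held a median of 62 insulin UMIs in SpopβKO and 22 in Spop fl/fl.

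Ppy set the class of its own cells, so its level there is a description. Ppy-led cells had 123597 CPM in SpopβKO and 139409 CPM in Spop fl/fl. Single cells ranged from 42 to 9079 Ppy UMIs with a median of 1213 in SpopβKO, and from 15 to 22391 with a median of 2202 in Spop fl/fl. Their median depth was 11546 UMIs in SpopβKO and 17836 in Spop fl/fl.

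Outside those cells Ppy, summed over each class, followed 1 order in both libraries. Somatostatin-led cells had 8364 CPM in SpopβKO and 4639 CPM in Spop fl/fl, glucagon-led cells 2812 and 2367 CPM, and insulin-led cells 812 and 797 CPM. Non-endocrine barcodes, which were not part of the common scaling, lay lowest, at 73.9 unscaled CPM in SpopβKO and 219 in Spop fl/fl, where insulin-led cells had 757 and 764 unscaled CPM, and 1 barcode of the Spop fl/fl set held 123 of its 215 Ppy UMIs. Neighbours in this order did not overlap in their counting intervals, which leave out the spread between cells, and no spread over samples can be given. By cell, at least 5 Ppy UMIs were present in 33.3% (15.6 to 55.3%) of somatostatin-led and 31.9% (29.8 to 34.0%) of glucagon-led Spop fl/fl cells. The SpopβKO shares were 57.1% (28.9 to 82.3%) and 34.2% (31.5 to 37.0%). In insulin-led cells the log2 ratio of SpopβKO over Spop fl/fl was 0.03 (0.01 to 0.05), in glucagon-led cells 0.25 (0.23 to 0.27) and in Ppy-led cells −0.17 (−0.18 to −0.17). The somatostatin-led ratio was 0.85 (0.73 to 0.97), and 1 of the 14 SpopβKO cells held 46.3% of the Ppy UMIs there, 1 of the 24 Spop fl/fl cells 40.0%. The insulin-led ratio is not settled in sign: it became −0.24 in cells whose leading hormone made up at least 90% of the 4. In those insulin-led cells Ppy fell to 182 unscaled CPM in SpopβKO and 218 in Spop fl/fl. The Spop fl/fl value is about that of its non-endocrine barcodes, and the SpopβKO value stayed above the 73.9 there.

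**Figure D1:**
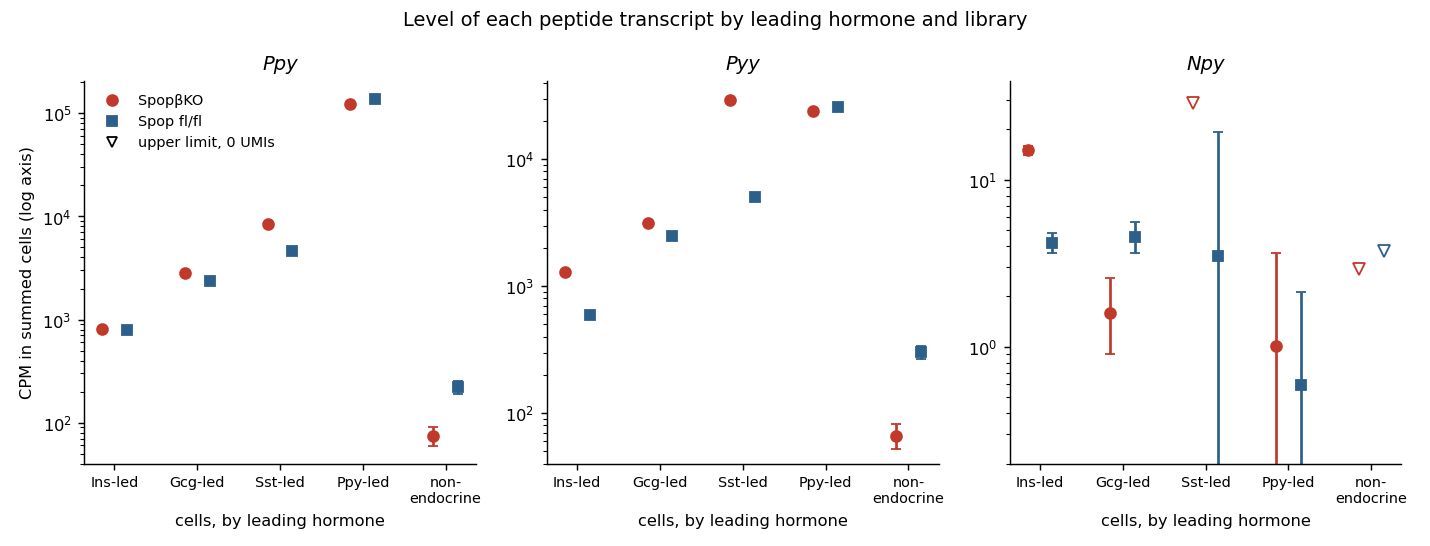
CPM of Ppy, Pyy and Npy (log axes) in cells grouped by leading hormone and in non-endocrine barcodes, with SpopβKO as circles and Spop fl/fl as squares. Bars are 95% Poisson intervals for counting error, and triangles are upper limits where no UMI was counted. Values of non-endocrine barcodes are unscaled. Pyy in insulin-led cells stood at 1298 CPM in SpopβKO and 595 CPM in Spop fl/fl.

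The Ppy of insulin-led cells sat in few cells. The 1% richest cells held 68.5% of it in SpopβKO and 69.9% in Spop fl/fl. At least 20 Ppy UMIs were present in 3.31% of these cells in SpopβKO and 2.69% in Spop fl/fl, and in 0 of 99 and 1 of 66 non-endocrine barcodes. A count of 0 among 99 allows a share of up to 3.03% at 3 counts, and its Clopper-Pearson interval reaches 3.66%, which takes in the 3.31% of SpopβKO insulin-led cells. A single UMI says little. After thinning every cell to 3000 UMIs, 29.4% of SpopβKO and 38.2% of Spop fl/fl insulin-led cells had a Ppy UMI, beside 22.3% and 33.9% of non-endocrine barcodes.

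In insulin-led cells Pyy differed more between the libraries than Ppy did. Pyy had 1298 CPM in SpopβKO (89442 UMIs) and 595 CPM in Spop fl/fl (31855 UMIs), 2.18-fold higher in SpopβKO with a log2 ratio of 1.12 (1.11 to 1.14). Of 8630 genes that averaged at least 10 CPM in these cells, 5.61% were at least 1.5-fold higher in SpopβKO and 3.11% at least 1.5-fold lower. Of the family, Ppy and Pyy passed that filter and Pyy alone passed the fold. In glucagon-led cells Pyy had 3128 CPM in SpopβKO and 2476 CPM in Spop fl/fl, a log2 ratio of 0.34 (0.32 to 0.36), and 0 of the 2 filtered members passed 1.5-fold, where 0.747% of 8700 genes were higher and 0.782% lower by that mark. Ppy-led cells had 24100 CPM in SpopβKO and 25846 CPM in Spop fl/fl, a log2 ratio of −0.10 (−0.12 to −0.08), with neither filtered member past the fold and 2.63% of 8561 genes higher, 4.50% lower. Over all kept cells Pyy had 173967 UMIs in SpopβKO and 169716 in Spop fl/fl, and Ppy 330330 and 564355, so the sums over the libraries differed more for Ppy. Non-endocrine barcodes had 65.9 unscaled CPM of Pyy in SpopβKO and 301 in Spop fl/fl, where 1 barcode held 245 of 295 Pyy UMIs.

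Somatostatin-led cells, summed, had 29062 CPM of Pyy in SpopβKO and 4994 CPM in Spop fl/fl. The SpopβKO sum was above that of Ppy-led cells, but 1 of its 14 cells held 28.9% of the Pyy UMIs. In raw UMIs per cell the order was the other way, with a median of 108 Pyy UMIs in somatostatin-led and 217 in Ppy-led SpopβKO cells. These medians are not scaled for depth, which had medians of 7063 and 11546 UMIs. The 14 SpopβKO somatostatin-led cells held between 2 and 1075 Pyy UMIs with quartiles of 74.5 and 399.75, and the 24 Spop fl/fl cells between 0 and 365 with a median of 26 and quartiles of 3 and 81.75. The full ranges of the libraries overlap, and their middle parts overlap little. Their log2 ratio was 2.54 (2.45 to 2.63), with both filtered members past 1.5-fold higher in a class so small that 21.0% of 8267 genes were that much higher and 29.0% lower. It was 1.63 when the leading hormone was chosen after subtracting free RNA, with 46 SpopβKO and 41 Spop fl/fl cells, and turned to −0.58 in the 1 SpopβKO and 3 Spop fl/fl cells with at least 90% somatostatin. In Spop fl/fl the Ppy-led cells were 5.18-fold above the somatostatin-led in CPM of Pyy, with a median of 304 UMIs.

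The number of insulin-led cells with Pyy differed as well. At least 5 Pyy UMIs were found in 17.3% (16.5 to 18.2%) of SpopβKO and 8.14% (7.37 to 8.96%) of Spop fl/fl insulin-led cells, beside 4.04% and 3.03% of non-endocrine barcodes. Thinned to 3000 UMIs, which left 5322 SpopβKO and 3701 Spop fl/fl cells and dropped 2025 and 980 shallower ones, the shares were 11.6% and 4.76%, beside 0 of 94 and 1 of 62 non-endocrine barcodes. Relative to their level glucagon-led cells differed less, with 45.4% in SpopβKO and 43.3% in Spop fl/fl before thinning, and 34.7% and 27.8% after. In percentage points the thinned difference was about as large as in insulin-led cells. Across each library, insulin-led cells held 51.4% of all Pyy UMIs in SpopβKO and 18.8% in Spop fl/fl, and Ppy-led cells 27.4% and 51.8%. The number of cells enters these sums: insulin-led cells were 83.1% of kept cells in SpopβKO and 68.3% in Spop fl/fl.

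**Figure D2:**
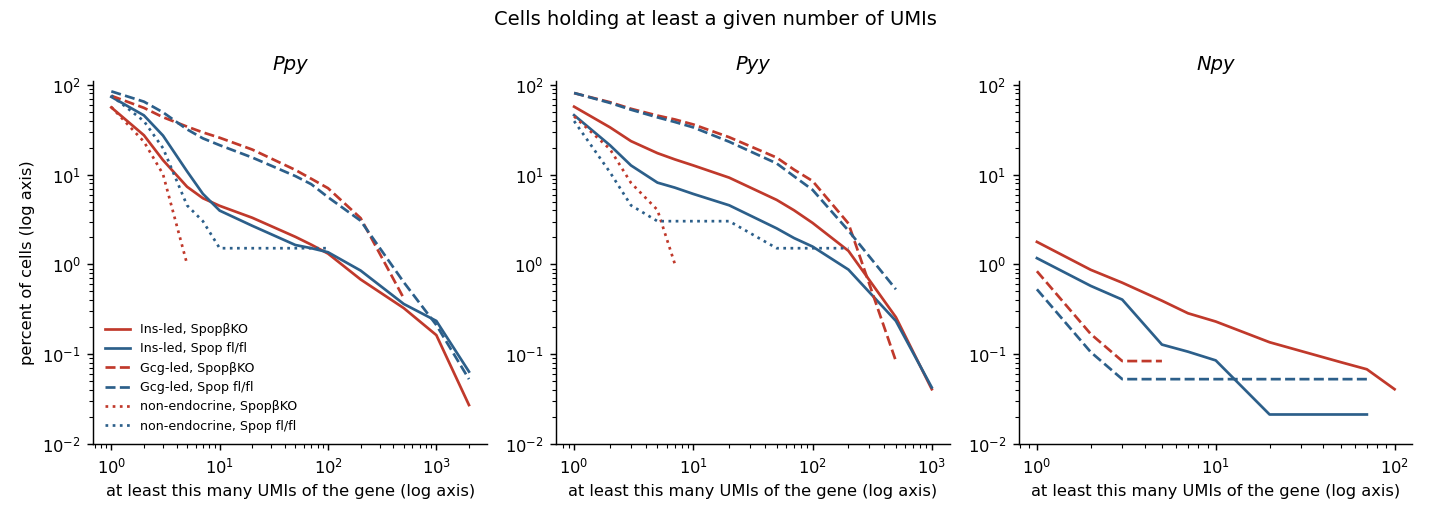
Percent of cells (log axis) with at least the number of UMIs on the horizontal log axis, for insulin-led cells (solid), glucagon-led cells (dashed) and non-endocrine barcodes (dotted) of SpopβKO in red and Spop fl/fl in blue. For Pyy the solid SpopβKO line runs above the solid Spop fl/fl line at 5 UMIs, with 17.3% and 8.14% of cells.

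What else the Pyy-rich insulin-led cells carried differed between the libraries. Among those with at least 20 Pyy UMIs, 679 cells in SpopβKO and 213 in Spop fl/fl, 38.9% in SpopβKO and 66.7% in Spop fl/fl also had at least 5 Ppy UMIs. At least 50 Gcg UMIs were present in 26.7% of these cells in SpopβKO and 60.1% in Spop fl/fl, and at least 5 Sst UMIs in 14.0% and 32.4%. Their median depth of 19205 UMIs in SpopβKO and 24292 in Spop fl/fl was above the 4576 and 7002.5 of insulin-led cells with no Pyy UMI. No doublet caller was used here, and the part of mixed droplets in these values was not tested.

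Cells with Pyy and little of the other hormones were then counted, with limits chosen after the values were seen (fewer than 50 Gcg, 5 Sst and 5 Ppy UMIs). These limits kept 6468 SpopβKO and 3919 Spop fl/fl insulin-led cells. Pyy in them was 662 unscaled CPM (655 to 668) in SpopβKO and 89.3 (86.4 to 92.4) in Spop fl/fl, 7.41-fold higher in SpopβKO. At least 20 Pyy UMIs were present in 329 SpopβKO cells, 4.48% (4.02 to 4.98%) of the insulin-led, and in 18 Spop fl/fl cells, 0.385% (0.228 to 0.607%). The 329 cells had a median of 1474 insulin, 6 Gcg and 47 Pyy UMIs at a depth of 15674, and the 18 cells 256 insulin, 10.5 Gcg and 37 Pyy UMIs at 12185.5. They held 33.4% of the Pyy UMIs of insulin-led cells in SpopβKO and 3.21% in Spop fl/fl. In cells with at least 90% insulin among the 4 hormones, Pyy had 860 unscaled CPM in SpopβKO and 220 in Spop fl/fl, and that limit kept 6666 of 7347 and 3186 of 4681 cells. Both Spop fl/fl values, 89.3 and 220, lay below the 301 of its non-endocrine barcodes, where 1 barcode held 245 of 295 Pyy UMIs. SpopβKO non-endocrine barcodes had 65.9 unscaled CPM. The part of free RNA in these values and in the 7.41-fold was not tested.

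By insulin content, given here in unscaled CPM, Pyy and Ppy had different profiles in SpopβKO. In Spop fl/fl both were highest at 5 to 10% insulin. Where insulin made up 1 to 2% of a cell's UMIs, Pyy had 1900 unscaled CPM in SpopβKO and 367 in Spop fl/fl. At 5 to 10% insulin it had 1482 unscaled CPM in SpopβKO and 905 in Spop fl/fl, and above 20% insulin 595 and 406. SpopβKO was thus higher for Pyy in all 6 ranges examined. Free insulin RNA was not alike in the libraries. Non-endocrine barcodes held a median of 66 insulin UMIs in SpopβKO and 19 in Spop fl/fl, at median depths of 10525 and 13280.5 UMIs. A range of low insulin may therefore not select the same cells in both libraries. Ppy was highest at 5 to 10% insulin in both libraries, with 1117 unscaled CPM in SpopβKO and 1317 in Spop fl/fl, and SpopβKO was higher in the 3 ranges under 5% and lower in the 3 above.

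**Figure D3:**
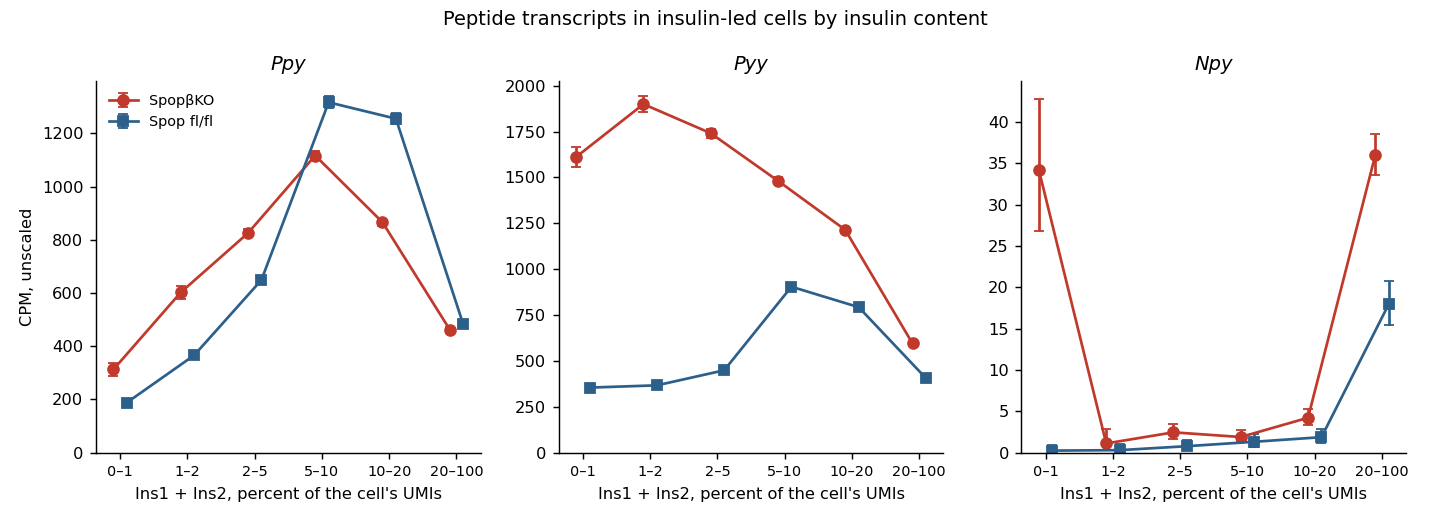
CPM (unscaled, with 95% Poisson intervals) of Ppy, Pyy and Npy in insulin-led cells, by the percent of a cell's UMIs that are Ins1 and Ins2, for SpopβKO (circles) and Spop fl/fl (squares). Npy reached 36.0 unscaled CPM in SpopβKO and 18.0 in Spop fl/fl above 20% insulin.

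Npy was rare, and insulin-led cells held 93.4% of its UMIs in SpopβKO and 71.1% in Spop fl/fl. These were 1036 UMIs in 131 of 7347 SpopβKO cells and 224 UMIs in 55 of 4681 Spop fl/fl cells, or 15 CPM (14.1 to 16.0) and 4.19 CPM (3.66 to 4.77). The log2 ratio was 1.84 (1.63 to 2.06), 3.59-fold higher in SpopβKO, for a gene whose mean of both libraries stayed under the 10 CPM filter. Single cells decided much of this: the richest cell held 170 UMIs, 16.4% of the total, in SpopβKO and 90 UMIs, 40.2%, in Spop fl/fl. Without the richest cell of each library the ratio was 2.33. At least 5 Npy UMIs occurred in 29 SpopβKO cells, 0.395% (0.265 to 0.566%), and in 6 Spop fl/fl cells, 0.128% (0.0471 to 0.279%).

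Cells rich in Npy were rich in insulin. Cells with at least 5 Npy UMIs had a median of 31.8% insulin in SpopβKO and 31.5% in Spop fl/fl, against 8.56% and 5.04% in cells without Npy. Median depth was also higher in them, 21127 UMIs in SpopβKO and 32220.5 in Spop fl/fl, against 7783 and 9332.5. Below 1% insulin SpopβKO showed 34.1 unscaled CPM, but 1 cell held 50 of the 75 UMIs. Few other cells had any Npy. Glucagon-led cells held 16 UMIs in SpopβKO and 88 in Spop fl/fl, of which 78 were in 1 cell, somatostatin-led cells 0 and 1, and Ppy-led cells 2 and 2. No UMI was counted in the 99 SpopβKO and 66 Spop fl/fl non-endocrine barcodes, which allows up to 2.38 and 3.06 unscaled CPM at 3 UMIs. A further 55 SpopβKO Npy UMIs lay in 5 of the 42 barcodes with immune-gate counts only through C1qa and C1qb, which had a median of 4089 insulin UMIs.

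Pyy was present more often in cells that also had Ppy. Among glucagon-led cells thinned to 3000 UMIs, at least 5 Pyy UMIs were present in 49.8% (43.6 to 56.0%) of SpopβKO and 45.3% (39.7 to 51.0%) of Spop fl/fl cells that had 5 or more Ppy UMIs. In those with less Ppy the shares were 30.0% (27.0 to 33.2%) in SpopβKO and 24.0% (21.9 to 26.3%) in Spop fl/fl. In insulin-led cells the contrast was wider, with 58.0% in SpopβKO and 53.3% in Spop fl/fl beside Ppy, against 9.50% and 3.34% without. Insulin-led cells with both peptides had a median of 19071 UMIs before thinning in SpopβKO and 24226 in Spop fl/fl, and cells with neither 10661.5 and 11470. With a single UMI as the mark, the glucagon-led shares were 72.0% in SpopβKO and 68.7% in Spop fl/fl with Ppy, and 66.5% and 60.6% without it. Non-endocrine barcodes ran the same way at that mark. Their SpopβKO shares were 28.6% (11.3 to 52.2%) with Ppy and 17.8% (9.84 to 28.5%) without. In Spop fl/fl they were 28.6% (11.3 to 52.2%) and 9.76% (2.72 to 23.1%). Ppy-led cells had at least 5 Pyy UMIs in 92.0% of SpopβKO and 88.6% of Spop fl/fl cells.

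**Figure D4:**
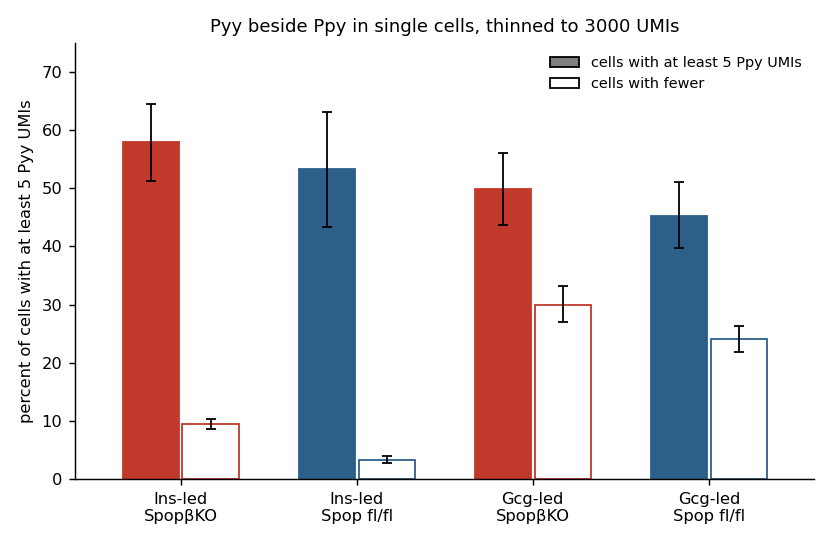
Percent of cells with at least 5 Pyy UMIs among cells with at least 5 Ppy UMIs (filled) and with fewer (open), in insulin-led and glucagon-led cells of each library after thinning to 3000 UMIs. Bars start at 0 and whiskers are 95% Clopper-Pearson intervals. Insulin-led cells without Ppy had Pyy in 9.50% in SpopβKO and 3.34% in Spop fl/fl.

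For Npy and Pyy the direction turned with the setting. In SpopβKO insulin-led cells thinned as above, 15 of 50 cells with an Npy UMI had a Pyy UMI, 30% (17.9 to 44.6%), against 39.1% of cells without Npy. The Spop fl/fl counts were 5 of 17, 29.4% (10.3 to 56.0%), against 23.5%. At 2 UMIs of each after thinning the SpopβKO count was 1 of 24, 4.17% (0.105 to 21.1%), against 21.5%. The Spop fl/fl count was 0 of 6 (0 to 45.9%), against 9.47%. Unthinned, with 1 UMI as the mark, the shares were 67.9% (59.2 to 75.8%) with Npy and 56.8% (55.7 to 58.0%) without in SpopβKO, and 60% (45.9 to 73.0%) and 45.7% (44.2 to 47.1%) in Spop fl/fl. Unthinned cells with both had a median of 18188 UMIs in SpopβKO and 24771 in Spop fl/fl, and cells with neither 4443 and 6907.5. For Npy and Ppy, thinned with 1 UMI as the mark, 15 of 50 SpopβKO cells with Npy had Ppy, 30%, against 29.3% without. The Spop fl/fl counts were 5 of 17, 29.4%, against 38.2%. Unthinned, these shares were 72.5% and 55.6% in SpopβKO, and 78.2% and 73.3% in Spop fl/fl. After thinning, all 3 members were seen together in 7 SpopβKO and 1 Spop fl/fl insulin-led cells. Pearson's r over insulin-led cells, on the log scale, was 0.25 in SpopβKO and 0.32 in Spop fl/fl for Ppy and Pyy, and −0.01 in both for Npy and Pyy. Depth and free RNA are shared by the cells of a library and enter these values.

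The ratio of Pyy to Ppy UMIs differed between the classes. 3′ counting tags each molecule once, so no length correction was made. Ppy-led cells had 0.195 Pyy UMIs per Ppy UMI in SpopβKO and 0.185 in Spop fl/fl, and glucagon-led cells 1.11 and 1.05. Insulin-led cells had 1.60 (1.58 to 1.61) in SpopβKO and 0.747 (0.736 to 0.758) in Spop fl/fl. Somatostatin-led cells had 3.47 (3.25 to 3.72) in SpopβKO and 1.08 (0.999 to 1.16) in Spop fl/fl, from 14 and 24 cells, and non-endocrine barcodes 0.892 (0.656 to 1.21) and 1.37 (1.15 to 1.64).

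The receptors of the family were scarcely detected. In all kept cells Npy1r had 10 UMIs in SpopβKO and 12 in Spop fl/fl, and Npy4r, the main receptor of pancreatic polypeptide, 3 and 2. No UMI of Npy2r, Npy5r or Npy6r was counted in either library.

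Of 9 genes for processing and degradation of the peptides, 7 passed the filter in insulin-led cells, 2 of them at least 1.5-fold higher in SpopβKO and 0 lower, where 5.61% of all genes tested were higher and 3.11% lower by that mark. Their median log2 ratio was 0.33, against −0.06 over all genes. Pcsk1 had 155 CPM in SpopβKO and 87.7 CPM in Spop fl/fl, a log2 ratio of 0.83. Dpp4 had 32.6 and 16.8 CPM, a log2 ratio of 0.96. Pam had 345 CPM in SpopβKO and 260 CPM in Spop fl/fl, and Cpe 1487 and 1903 CPM, both under 1.5-fold. In glucagon-led cells 0 of 7 passed the fold in either direction, beside 0.747% higher and 0.782% lower over all genes.

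Of 17 other islet peptide hormones, 3 passed the filter in insulin-led cells, 2 of them past 1.5-fold higher and 0 lower, beside 5.61% and 3.11% of all genes. Their median log2 ratio was 0.72, against −0.06 over all genes. Iapp, the amyloid peptide released with insulin, had 22193 CPM in SpopβKO and 13475 CPM in Spop fl/fl, a log2 ratio of 0.72. Nucb2, the precursor of nesfatin, had 209 and 109 CPM, a log2 ratio of 0.93, and Ucn3, a beta-cell maturity peptide, 91.2 and 69.1 CPM. Ins1 had 43809 CPM in SpopβKO and 12323 CPM in Spop fl/fl, a log2 ratio of 1.83, while Ins2 had 131294 and 109499 CPM, a log2 ratio of 0.26.

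Of 19 islet transcription factors, 12 passed the filter in insulin-led cells, 4 past 1.5-fold higher and 1 lower, beside 5.61% and 3.11% of all genes. Their median log2 ratio was 0.46, against −0.06 over all genes. Meis2, also on the PP marker list, had 236 CPM in SpopβKO and 136 CPM in Spop fl/fl, a log2 ratio of 0.79. Meis2 was highest in somatostatin-led cells, with 406 and 279 CPM, against 271 and 217 CPM in Ppy-led cells. Mafa, which drives insulin transcription in mature beta cells, had 298 and 173 CPM, a log2 ratio of 0.78. Pdx1 had 89.8 and 57.2 CPM, a log2 ratio of 0.65. The factor past the fold in the lower direction was Insm1, with 148 CPM in SpopβKO and 228 CPM in Spop fl/fl, named after its value was seen. Rbp4, from a list of genes of immature endocrine cells, had 229 CPM in SpopβKO and 186 CPM in Spop fl/fl.

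Marker lists also differed between the libraries within the insulin-led class, given here as sums of unscaled CPM. The 5 PP markers without Ppy, mostly Meis2, summed to 286 in SpopβKO and 165 in Spop fl/fl, 4 of 5 higher in SpopβKO. Meis2, which was highest in somatostatin-led cells, had 219.8 in SpopβKO and 130.6 in Spop fl/fl. Tspan8 had 40.6 and 7.34, Fxyd2 2.44 and 2.24, and Aqp3 0.338 and 0.269, while Etv1 was lower in SpopβKO. The 12 acinar enzyme genes summed to 153 and 9.85, all 12 higher in SpopβKO. The 7 beta markers without the insulins, mostly Iapp, summed to 21639 in SpopβKO and 13469 in Spop fl/fl, 7 of 7 higher in SpopβKO. The 6 immune markers, here with C1qa and C1qb counted, summed to 48.5 and 10.2 (6 of 6 higher in SpopβKO). The 5 mesenchymal markers summed to 6.83 and 2.90 (5 of 5 higher) and the 5 ductal to 672 and 437 (4 of 5 higher). The 5 endothelial markers summed to 6.87 in SpopβKO and 4.73 in Spop fl/fl (3 of 5 higher). Closer between the libraries were the 4 glial markers, at 10.1 in SpopβKO and 11.6 in Spop fl/fl. So were the 5 delta markers without Sst, at 225 and 195, and the 7 alpha markers without Gcg, at 372 and 396. Of these lists 1 immune marker was at 0, in Spop fl/fl. Their part in the Pyy difference was not tested.

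Over the 8 sums of 4 classes and 2 libraries, the genes most like each member by Pearson's r of log2(CPM + 1) were Gmppa, Kcnj11, Fxyd3, Rbx1 and Kdelr3 for Ppy (r from 0.92 to 0.95), Ogfod3, Tmem176a, Exoc6, Cenpx and Tmem51 for Pyy (0.95 to 0.97), and Hivep3, Mindy2, Sepsecs, 4930402H24Rik and Ank2 for Npy (0.92 to 0.97). They are the highest of 7018 genes over 8 points and are given as a description. Across insulin-led cells, taking the lower r of the 2 libraries, Pyy was most like Ppy (0.25), Rbp4 (0.25), Ttr (0.24), Tspan8 (0.23) and Sst (0.23). Ppy was most like Pyy (0.25), Gcg (0.23), Rbp4, Kcnk3 and Sst (each 0.16). Npy was most like Ins1 (0.09), with Slc2a2, Iapp, Selenop and Rtn1 at 0.05 each.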

How the data were processed

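The study sequenced islet RNA in 2 libraries, 1 per genotype. Values were used as the authors deposited them, as raw UMI counts for every gene and barcode. The file headers name Cell Ranger 6.0.0 as the counter. The submitters' processing notes give the build, mm10, together with R 4.1.1 and Seurat 4.1.0. How barcodes were called cells is not given in the sources used here. The members, gene lists and settings were chosen with earlier results of these data known.

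Barcodes needed 500 genes or more and no more than 15% mitochondrial UMIs. The class of a cell was the largest of Ins1 + Ins2, Gcg, Sst and Ppy with at least 10 UMIs, leaving out barcodes with at least 10 UMIs of mesenchymal, endothelial or immune markers. Counts were summed per class and library, scaled by TMM over the 8 sums (checked against edgeR and tested on simulated data) and expressed as CPM. Values called unscaled are CPM before TMM. Intervals at 95% are exact Poisson for counts, exact conditional for ratios and Clopper-Pearson for shares. Cells were thinned to 3000 UMIs for shares and co-detection. The filter was 10 CPM on average over the libraries, and the fold 1.5. Named genes were the members, the leading hormones, Spop, the receptors, up to 4 genes per list with the largest ratio in insulin-led cells, and the 5 genes most like each member. Non-endocrine barcodes exclude those gated only through C1qa and C1qb, 42 in SpopβKO and 1 in Spop fl/fl, a choice made after seeing the data. No doublet caller was run. Totals of 89977773 UMIs in SpopβKO and 82541585 in Spop fl/fl set the precision. The scripts ran under Python 3.11.15 with pandas 2.3.3, numpy 2.4.6, matplotlib 3.10.9 and scipy 1.17.1. Alternatives to the filters, the class rule, the scaling and the thinning are given with the results' dependence on processing. 1 gene that the naming rule selects is not reported here.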

Additional observations from a re-analysis of the deposited data

Results flagged for a closer look

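Npy had opposite signs in the 2 main classes, with a log2 ratio of SpopβKO over Spop fl/fl of 1.84 in insulin-led cells and −1.51 in glucagon-led cells. The difference between the classes was not tested. Without the richest cell of each library the glucagon-led ratio was 0.95, from 10 UMIs in SpopβKO and 10 in Spop fl/fl, and 1 glucagon-led Spop fl/fl cell held 88.6% of the Npy UMIs there.

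Barcodes that failed the filters, 1191 in SpopβKO and 918 in Spop fl/fl, also held the peptides. Pyy in them had 1231 unscaled CPM in SpopβKO and 937 in Spop fl/fl, a log2 ratio of 0.39 (0.30 to 0.49). Npy had 9 and 2 UMIs, a log2 ratio of 2.29 (0.02 to 5.54). Ppy ran the other way, with 1212 unscaled CPM in SpopβKO and 3346 in Spop fl/fl.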

How the results depend on the processing

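No paired analysis was possible because each genotype has 1 library. For the same reason no replicate could be left out. Values below are log2 ratios of SpopβKO over Spop fl/fl. Pyy in insulin-led cells kept its direction under every alternative run, from 1.08 to 1.99: 1.08 unscaled, 1.18 without hormone UMIs in the denominator, 1.29 with each cell weighted equally, 1.09 at 10% mitochondrial UMIs, 1.15 at 1000 genes, 1.99 with the lead hormone at 90% or more, 1.29 without the 5% of cells with most UMIs, 1.10 after subtracting free RNA and 1.14 without the richest cell. Pyy in glucagon-led cells was 0.46 weighted equally, 0.39 at 1000 genes, 0.62 at 90%, 0.39 without the top 5% and 0.29 after subtraction.

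Ppy in insulin-led cells changed sign: −0.012 unscaled, −0.057 weighted equally, −0.24 at 90%, −0.036 with a lead hormone of at least 50 UMIs, −0.24 without the top 5% and −0.012 after subtraction, while it was 0.081 with the hormone-free denominator and 0.055 at 1000 genes. In glucagon-led cells Ppy was 0.72 weighted equally, 0.21 at 1000 genes, 0.080 at 90%, 0.37 without the top 5% and 0.16 after subtraction. Npy in insulin-led cells was 1.54 at 90% and 2.33 without the richest cell, and in glucagon-led cells −2.88 at 90% and 0.95 without the richest cell. Ppy-led cells turned to 0.0015 for Ppy and 0.22 for Pyy weighted equally, and to 0.15 for Pyy without the top 5%. Somatostatin-led cells turned to −1.98 for Ppy and −0.58 for Pyy at 90%, which left 1 and 3 cells. The cause was not tested.

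The share of glucagon-led cells with Pyy was higher beside Ppy in both libraries at every setting. It was 61.6% with and 45.4% without Ppy in SpopβKO, and 56.1% and 40.2% in Spop fl/fl, at 2 UMIs. At 5 UMIs it was 49.8% and 30.0%, and 45.3% and 24.0%. With 1 UMI as the mark and thinned to 5000 UMIs it was 81.2% and 79.5%, close together in SpopβKO, and 77.7% and 68.3%. Unthinned, with 1 UMI as the mark, it was 83.2% and 73.4%, and 83.6% and 66.7%. Few UMIs limit Npy, and few cells, 14 in SpopβKO and 24 in Spop fl/fl, limit the somatostatin-led class.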

Other observations

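Among listed genes under the 10 CPM filter, several had more UMIs in SpopβKO insulin-led cells, chosen here after their values were seen. Cartpt, a neuropeptide of brain and islet, had 368 UMIs in 206 SpopβKO cells, 2.80% (2.44 to 3.21%), and 29 UMIs in 25 Spop fl/fl cells, 0.534% (0.346 to 0.787%). Its richest cell held 3.80% of the UMIs in SpopβKO. Aldh1a3, an enzyme of retinoic acid synthesis known from dedifferentiated beta cells, had 139 UMIs in 115 SpopβKO cells and 5 UMIs in 5 Spop fl/fl cells. Neurog3, the factor of endocrine progenitors, had 132 UMIs in 101 SpopβKO cells and 29 UMIs in 25 Spop fl/fl cells. Aldh1a3 and Neurog3 come from the list of immature endocrine genes, of which others under the filter did not all run the same way, with log2 ratios of 2.37 for Cck (40 UMIs in SpopβKO and 6 in Spop fl/fl), 0.75 for Ldha, 0.49 for Hk1, −0.02 for Slc5a10, −0.05 for Gast and −0.12 for Sox9. Vip had 737 UMIs in SpopβKO and 1 in Spop fl/fl, but they lay in 18 cells and 1 cell held 56.3% of them.

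An Npy UMI was present in 16 of the 206 SpopβKO cells with Cartpt and in 0 of the 25 Spop fl/fl cells. These counts are unthinned with 1 UMI as the mark, and the depth of the cells with Cartpt is not given here. At that setting the SpopβKO contrast of Npy and Pyy turned after thinning, so no link of Npy with Cartpt is read from them. Over all insulin-led cells the share with Npy was 1.78% in SpopβKO and 1.17% in Spop fl/fl, so 25 cells are too few to set the libraries apart.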
